A study of Gnathonemus petersii with 18 samples.

Results

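The trigeminal ganglion of Gnathonemus petersii, the elephantnose fish, which lives in African fresh water and senses its surroundings with weak electric pulses, was compared with the spinal cord of the same species by RNA sequencing. The 6 libraries labelled trigeminal ganglion and the 6 labelled spinal cord were chosen by tissue, 12 of the study's 18 libraries, and the remaining 6 libraries, of brain (cerebellum), were not used here. Both tissues were taken from 6 individual fish, and the labels give no strain, age, sex or treatment, so the groups differ in tissue alone as far as the labels state. The study's title asks how early in vertebrates a fine sense of touch arose.

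The trigeminal ganglion holds the cell bodies of the primary sensory neurons that report touch, temperature and pain from the head. Schwann cells wrap their axons, satellite glia surround their cell bodies, and a connective tissue sheath encloses the whole. The spinal cord is central nervous tissue, with motor neurons, excitatory and inhibitory interneurons, oligodendrocytes, astroglia or radial glia, and the ciliated ependymal cells that line its canal. Each library was made from tissue RNA and so mixes the cells of its tissue.

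Total gene counts ran from 10413024 to 14183733 in the ganglion libraries and from 10346375 to 13379441 in the spinal cord libraries. Libraries with the same replicate number were treated as pairs because their deviations from the tissue means correlated. The tests below are paired by that number unless a fit without pairing is named. The defining markers of each tissue were where its label puts them. Summed levels of 6 ganglion neuron markers ran from 1058 to 1867 CPM in the ganglion and from 102 to 161 CPM in the cord, where CPM is the gene count relative to the TMM-scaled library size. The sums of 4 spinal motor neuron markers had a median of 0.238 CPM in the ganglion, where mnx1 and chat had no count at all, and of 316 CPM in the cord. Ganglion replicates 2 and 5 differed from the other 4 ganglion libraries in many genes, as described below. Their rank correlation with each other across genes was 0.939. Their mean correlations with the cord libraries were 0.733 and 0.678, against 0.793 to 0.815 for the other 4. By mean correlation with its own tissue only replicate 5 stood apart, at 0.864, against 0.919 to 0.935 for the rest, replicate 2 among them. A single gene without a symbol took 16.0% of the counts in ganglion replicate 5, 5.90% in replicate 2 and 1.65% to 2.50% in the others, against 6.26% to 9.51% in the cord.

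Of 20002 genes tested, 2756 (13.8%) were higher and 3469 (17.3%) were lower in the ganglion. A gene was called at an adjusted p under 0.05 in a paired edgeR fit and a difference of at least 2-fold. Among the genes with a symbol, 1161 of 9414 were higher and 1401 lower, and among those with only a locus identifier 1595 of 10588 were higher and 2068 lower. The largest differences lay on the lower side: a log2 fold change of 5 or more in size was found for 111 higher and 284 lower genes, and 32 lower genes had no count in any ganglion library, against 11 higher genes with none in the cord. The higher genes took 26.8% to 35.4% of the counts in ganglion libraries and 9.67% to 11.8% in cord libraries, while the lower genes took 2.90% to 6.14% in the ganglion and 21.5% to 23.5% in the cord.

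All 6 pairs moved the called way for 92.9% of the higher and 94.6% of the lower genes. They also moved in one direction for 3791 of the 13777 genes not called. The calls rest on these same pairs, so the agreement among pairs is no separate support for them. The 6 libraries of each tissue did not overlap for 14.3% of the genes tested with the ganglion above and 16.3% with the ganglion below. The balance of the calls moved with the scaling. Higher genes made up 44.3% of the calls here and 22.1% with limma on log2(TPM + 1), where 1202 genes (6.23%) were higher and 4231 (21.9%) lower of 19306 tested. On that scale the median of all genes lay at -0.38, and with each fold change taken relative to that median the counts were 2261 higher and 2557 lower. Unless another tool is named, the counts of list members below are those of the paired edgeR fit, and counts at an unadjusted p under 0.05 keep the 2-fold limit. Over all genes, for comparison with those counts, that fit called 13.8% higher and 17.3% lower. The fits on log2(TPM + 1) tested fewer members of some lists.

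**Figure D1:**
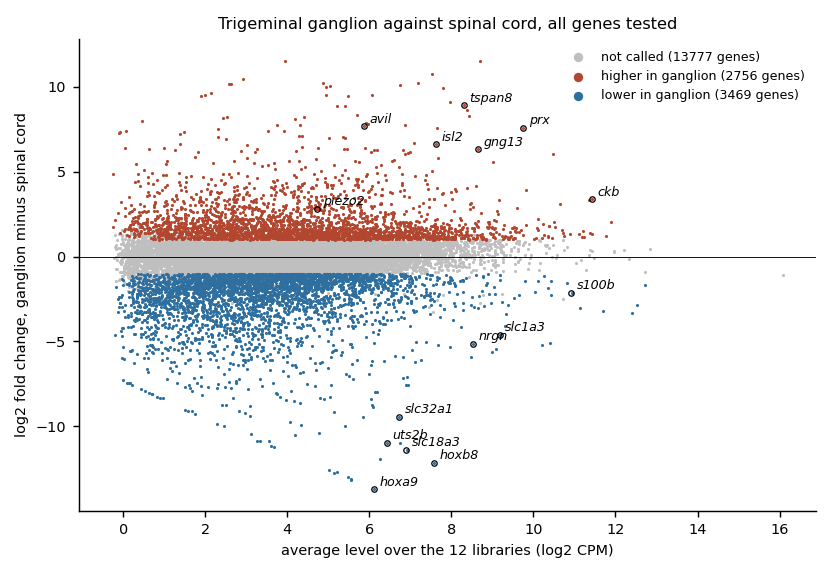
Log2 fold change of each gene tested (ganglion minus spinal cord, vertical axis) against its average log2 CPM over the 12 libraries (horizontal axis); red points are the 2756 higher genes, blue points the 3469 lower ones, grey points were not called, and labelled genes are described in the text. The lower genes reach further from 0 than the higher ones, down to hoxa9, and tspan8 and prx lie near the top among abundant genes. With no ganglion count, hoxa9 was at least 3087-fold lower, and its plotted value is not a measured fold change.

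Many genes that define sensory neurons were higher in the ganglion. The members of this and the other lists were chosen with earlier results of these data known. Of 17 tested sensory identity factors and receptors, 9 rose, 1 fell and 7 were not called, with a median log2 fold change of 1.99 against -0.02 over all genes. On log2(TPM + 1) the median was 0.68 with 8 higher, and relative to all genes on that scale 1.06 with 9 higher. By pair, the median log2 difference ran from 0.61 in pair 2 to 2.4 in pair 4. In whole tissue, more cells of a type and more RNA per cell cannot be told apart. Advillin (avil), an actin-binding protein of mammalian sensory neurons, ran from 62.9 to 169 CPM in the ganglion (median 131), against 0.159 to 1.06 CPM in the cord (median 0.529). The homeodomain factor isl2 ran from 318 to 474 CPM in the ganglion (median 405), against 2.68 to 5.48 CPM in the cord (median 3.91). Its relative isl1, needed for sensory and motor neuron fates in mice, ran from 179 to 323 CPM in the ganglion (median 237), against 2.04 to 8.49 CPM in the cord (median 3.17). None of these ranges overlapped between the tissues, and the log2 fold changes were 7.68 ± 0.33, 6.61 ± 0.20 and 6.08 ± 0.31 (adjusted p = 1.49e-06, 5.19e-07 and 2.17e-06). Here and below, a value written with ± that carries no unit is a log2 fold change, ganglion minus cord, with its standard error.

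The other members of the list that rose covered a range of sizes. The homeobox gene shox2, which in mice helps specify touch neurons, was at 4.02 ± 0.37, and the filament protein gene prph (peripherin) at 3.78 ± 0.25. The placodal cofactor eya1 was at 1.99 ± 0.63, a call lost without replicate 3 or 6, at 2.08 and 1.75. Receptors for ligands of the GDNF family also rose, gfra2 at 2.19 ± 0.13 and ret at 2.11 ± 0.16. The ETS factor etv1, which in mice marks proprioceptive neurons, was the member that fell, at -1.76 ± 0.29. The BDNF receptor ntrk2 was not called and lay at -0.58 ± 0.17, with 91.4 ± 16.2 CPM in ganglion libraries and 136 ± 25.6 CPM in cord libraries (mean ± SD, n = 6 each). The most abundant uncalled member, mafb, lay at 0.68 ± 0.17 and was above its pair in 6 of 6 pairs, short of the 2-fold limit.

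Channels of touch, temperature, acid and ATP sensing did not move as a group. Of 28 tested, 8 rose, 7 fell and 13 were not called, and the median was -0.02. The number that rose was 7 with DESeq2, without pairing and without replicate 3, 4, 5 or 6. Of 23 tested on log2(TPM + 1), 5 rose, and 6 did relative to all genes. The mechanically activated channel piezo2, which serves touch in mammals, ran from 23.1 to 70.2 CPM in the ganglion (median 40.5), against 5.04 to 7.55 CPM in the cord (median 6.12). Ganglion replicates 2 and 5 were the 2 highest at 70.2 and 69.8 CPM and replicate 1 the lowest, but every ganglion library lay above every cord library (log2 fold change 2.82 ± 0.23, adjusted p = 2.03e-05), and without pairs 2 and 5 piezo2 was at 2.45. The acid-sensing channel family member asic4 ran from 42.3 to 99.4 CPM in the ganglion (median 88.7), against 0.867 to 3.85 CPM in the cord (median 3.07) (log2 fold change 5.12 ± 0.29, adjusted p = 3.28e-06). The irritant receptor trpa1 ran from 18.5 to 58.1 CPM in the ganglion (median 38.9), against 1.03 to 2.84 CPM in the cord (median 2.03), with no overlap (log2 fold change 4.31 ± 0.26, adjusted p = 4.12e-06). The stretch-sensitive potassium channel kcnk4 (TRAAK in mammals) and the oxidant-sensitive trpm2 were at 2.62 ± 0.32 and 2.03 ± 0.20.

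In the opposite direction, the polycystin family member pkd1l2 ran from 0.787 to 3.00 CPM in the ganglion (median 1.26), against 62.8 to 103 CPM in the cord (median 73.9) (log2 fold change -5.80 ± 0.26, adjusted p = 1.54e-06). The cation channel trpc7 ran from 0 to 1.5 CPM in the ganglion (median 0.299), against 14.6 to 20.8 CPM in the cord (median 17.8), and every ganglion library lay below every cord library (log2 fold change -5.35 ± 0.64, adjusted p = 0.000177). The transmembrane channel-like gene tmc3 also fell, at -3.36 ± 0.54. Among those not called, piezo1 lay at 0.41 ± 0.22, the ATP receptor p2rx7 at -0.40 ± 0.13 and trpv4 at -0.38 ± 0.37. Of the 10 hair cell genes tested, 2 rose, 5 fell and 3 were not called (median -0.85). The tip-link gene pcdh15 fell to 0.113 to 3.76 CPM in the ganglion, against 30.3 to 45.0 CPM in the cord (log2 fold change -5.11 ± 0.48, adjusted p = 4.6e-05).

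**Figure D2:**
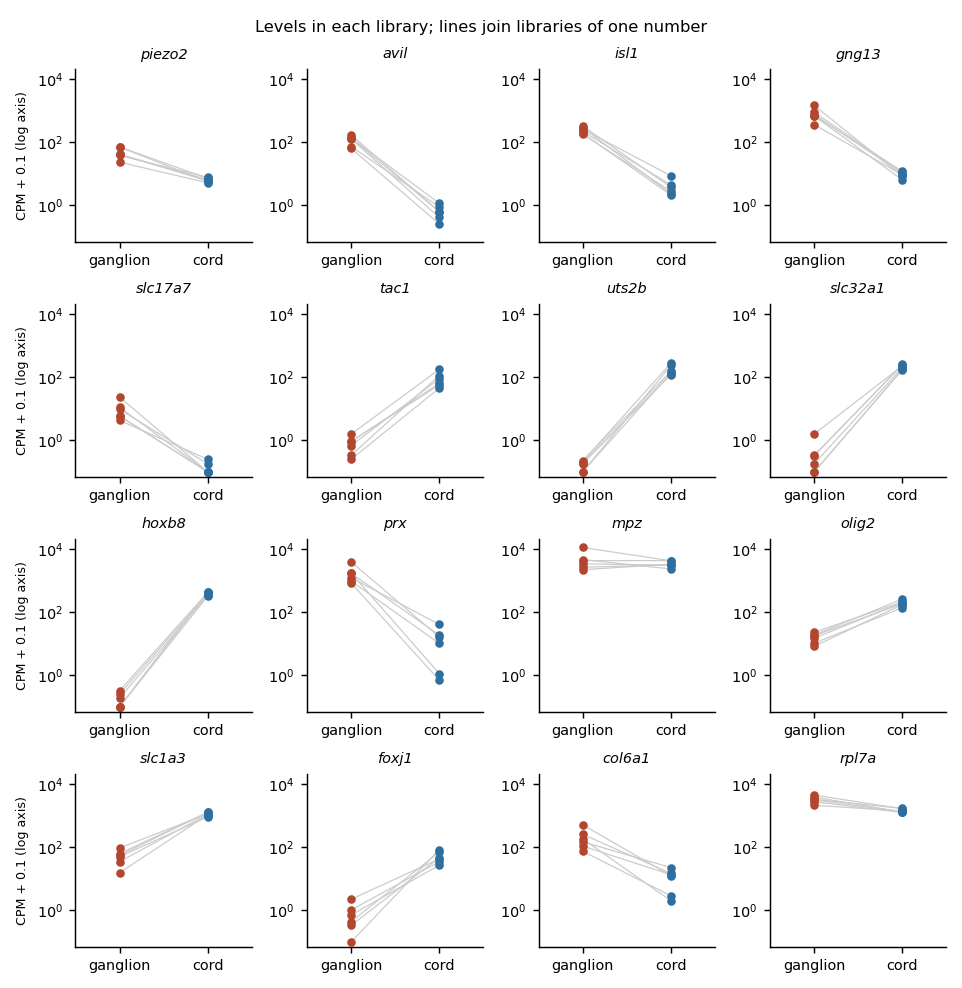
CPM plus 0.1 on a log axis for 16 genes in each library, with the 6 ganglion libraries (red) left of the 6 spinal cord libraries (blue) and lines joining the same replicate number. Of the genes shown, mpz overlaps between the tissues, and prx and col6a1 are widely spread among the cord libraries.

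The vesicular glutamate transporters divided. The first of them, slc17a7 (VGLUT1 in mammals), reached 568 counts over the ganglion libraries, against 3 over the cord libraries, a scaled ratio of 217 (95% exact counting interval 73.9 to 1056). It ran from 4.17 to 23.2 CPM in the ganglion (median 7.62), against 0 to 0.150 CPM in the cord (median 0). In contrast, slc17a6 (VGLUT2 in mammals) fell and ran from 27.5 to 45.1 CPM in the ganglion (median 39.4), against 119 to 145 CPM in the cord (median 129) (log2 fold change -1.83 ± 0.14, adjusted p = 1.42e-05).

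Most neuropeptide precursor genes were lower in the ganglion: 13 of 22 fell, 5 rose and 4 were not called, with a median of -2.03. The summed level of the list went the other way, from 1207 to 3578.5 CPM in the ganglion against 1159 to 1767 CPM in the cord. In every pair this sum was higher in the ganglion. The urotensin-related peptide gene uts2b ran from 0 to 0.129 CPM in the ganglion (median 0.0865), against 119.9 to 273 CPM in the cord (median 142), and its 5 counts over the 6 ganglion libraries stood against 13442 in the cord. The C-type natriuretic peptide gene nppc ran from 0.226 to 6.17 CPM in the ganglion (median 0.912), against 182 to 313 CPM in the cord (median 232) (log2 fold change -7.56 ± 0.69, adjusted p = 3.66e-05). The substance P precursor tac1, a peptide of nociceptors and of central neurons in mammals, ran from 0.150 to 1.47 CPM in the ganglion (median 0.695), against 44.4 to 174 CPM in the cord (median 75.4). Every ganglion library lay below every cord library for all of these, with tac1 at -7.02 ± 0.35 (adjusted p = 1.87e-06). The opioid precursors penk and pnoc were at -5.24 ± 0.26 and -5.94 ± 0.36, and galanin (gal) was at -5.31 ± 0.67.

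Among the peptide genes that rose, cholecystokinin (cck) differed most and ran from 451 to 918 CPM in the ganglion (median 787), against 37.2 to 45.6 CPM in the cord (median 38.9) (log2 fold change 4.17 ± 0.19, adjusted p = 1.6e-06). The next were nmb at 1.75 ± 0.50, the granin chga, scg5 and adcyap1, the PACAP precursor, at 1.09 ± 0.19. Without pairs 2 and 5, 2 of the 22 rose and 13 fell, and the calls of nmb, scg5 and adcyap1 were lost, scg5 and adcyap1 at 0.78 and 0.77. The granin scg2 was not called and was nearly level, at 123 ± 25.7 CPM in ganglion libraries and 123 ± 26.1 CPM in cord libraries.

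Motor neuron and cholinergic genes fell in 13 of 21 cases, rose in 4 and were not called in 4 (median -1.48). The vesicular acetylcholine transporter slc18a3, needed to load synaptic vesicles, ran from 0 to 0.451 CPM in the ganglion (median 0.0322), against 138 to 353 CPM in the cord (median 227). The motor neuron factor mnx1 had no count in the ganglion and ran from 6.22 to 30.3 CPM in the cord, so it was at least 443-fold lower against a floor of 3 counts over the 6 ganglion libraries. The acetylcholine-synthesising enzyme chat was at least 236-fold lower by the same floor, and the choline transporter slc5a7 was at -8.30 ± 0.43. The members that rose were nicotinic receptor subunits and a T-box factor: chrna4 at 3.70 ± 0.26, chrnb2 at 2.04 ± 0.17, and chrnb3 and tbx3.

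All 9 tested genes of inhibitory transmitter synthesis and transport fell (median -5.23). The vesicular transporter for GABA and glycine, slc32a1, ran from 0 to 1.48 CPM in the ganglion (median 0.154), against 171 to 250.5 CPM in the cord (median 213). The GABA-synthesising enzyme gad1 ran from 0 to 1.67 CPM in the ganglion (median 0.0787), against 106 to 161 CPM in the cord (median 139), and the glycine transporter slc6a5, which marks glycinergic neurons, from 0 to 1.03 CPM in the ganglion (median 0.275), against 96.0 to 157 CPM in the cord (median 128). Ganglion replicate 3 was the highest ganglion library for all of them, yet far below every cord library, and the log2 fold changes were -9.43 ± 0.61, -8.88 ± 0.69 and -8.39 ± 0.43. The second GABA-synthesising enzyme, gad2, was at -5.09 ± 0.30.

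Monoamine genes followed the same direction in 11 of 17 cases, with 2 higher and 4 not called (median -2.03). Only 11 were tested relative to all genes on log2(TPM + 1), of which 7 were lower and 1 was higher. The serotonin-synthesising enzyme tph2 ran from 0 to 0.551 CPM in the ganglion (median 0.0565), against 3.77 to 16.6 CPM in the cord (median 6.67) (log2 fold change -5.61 ± 0.72, adjusted p = 0.000259). The dopamine receptor drd2 was at -4.71 ± 0.52 and the serotonin receptor htr1a at -2.57 ± 0.33. The vesicular monoamine transporter slc18a2 was not called, at 0.45 ± 0.19, and the members that rose were htr2b and adra1d.

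Transcription factors of spinal interneurons fell in 21 of 32 cases, rose in 3 and were not called in 8 (median -2.80). The commissural interneuron factor dmrt3 had no count in the ganglion and ran from 6.22 to 12.8 CPM in the cord, at least 209-fold lower. The ventral progenitor factor nkx6-1 was at -8.08 ± 0.57. The LIM factor lhx1 ran from 0 to 2.35 CPM in the ganglion (median 0.115), against 123 to 159.5 CPM in the cord (median 136), with every ganglion library below every cord library. Both gata3 and the Iroquois genes irx2 and irx3 rose, at 1.41 ± 0.28, 2.08 ± 0.63 and 1.12 ± 0.34. The calls of irx2 and irx3 were lost without pairs 2 and 5, at 1.08 and 0.84, and gata3 was at 0.82 on log2(TPM + 1), where it was not called. Only 2 genes of the list rose when replicate 1, 2, 4, 5 or 6 alone was left out, and 1 of 31 on log2(TPM + 1).

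Hox genes had the most negative medians of the 48 lists. All 10 tested genes of groups 1 to 5 and all 9 tested genes of groups 6 to 13 fell. These genes encode transcription factors that lay out the body axis from hindbrain to tail. Medians were -7.02 for groups 1 to 5 and -11.92 for groups 6 to 13, or -10.61 with genes that had no ganglion count set at their bound. In the cord, hoxa9 ran from 117 to 152 CPM, hoxc8 from 70.9 to 103 CPM and hoxa7 from 49.4 to 88.0 CPM, and none of them had a ganglion count. They were at least 3087-fold, 2086-fold and 1566-fold lower. For hoxb9 there were 2 ganglion counts and 11865 cord counts, a scaled ratio of 5175 (95% exact counting interval 1432 to 42740.0). Traces were left of hoxb8, at 0 to 0.226 CPM in the ganglion against 318 to 444 CPM in the cord. Of the anterior group, hoxb3 was at -9.48 ± 0.48, hoxb5 at -8.40 ± 0.51 and hoxb4 at -8.25 ± 0.42. The smallest difference in either group was that of hoxa2, at -2.19 ± 0.32.

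Many genes of the receiving side of synapses were lower in the ganglion. Of 19 glutamate receptor genes, 14 fell, 1 rose and 4 were not called (median -2.30). Their summed level was 943 and 2753 CPM in ganglion replicates 2 and 5 and 295 to 370 CPM in the other ganglion libraries. In the cord it ran from 744 to 894 CPM. The most abundant uncalled member, gria2, lay at 0.80 ± 0.64. The NMDA receptor subunit grin2a ran from 0.150 to 0.629 CPM in the ganglion (median 0.275), against 11.8 to 17.6 CPM in the cord (median 15.7) (log2 fold change -5.47 ± 0.31, adjusted p = 3.77e-06), the AMPA receptor auxiliary protein cnih2 was at -4.36 ± 0.42 and the kainate receptor subunit grik3 at -3.95 ± 0.34. The metabotropic receptor grm2 was the one that rose, at 1.55 ± 0.44, a call lost without replicate 1 or 6, at 1.41 and 1.23, and on log2(TPM + 1), at 0.91. Of 12 GABA and glycine receptor genes, 8 fell, 1 rose and 3 were not called (median -2.26). The GABA-A receptor subunits gabrg1, gabrg3 and gabrp were at -7.05 ± 0.41, -6.40 ± 0.63 and -6.39 ± 0.45, and gabra6 rose, at 1.36 ± 0.43. That call was lost without replicate 2, 3 or 6, at 1.07, 1.17 and 1.19, and on log2(TPM + 1), at 0.58, or 0.96 relative to all genes.

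Postsynaptic scaffold and synaptic adhesion genes fell in 21 of 37 cases and 16 were not called (median -1.19). None rose in the edgeR fit over all 6 pairs, with DESeq2 or at an unadjusted p under 0.05. Without replicate 5, and likewise without pairs 2 and 5, 1 rose. The calmodulin-binding protein neurogranin (nrgn) ran from 13.9 to 47.5 CPM in the ganglion (median 17.9), against 520.4 to 881 CPM in the cord (median 711) (log2 fold change -5.16 ± 0.33, adjusted p = 5.89e-06). The cerebellins cbln2 and cbln1, secreted proteins that bridge synapses, were at -5.89 ± 0.38 and -5.53 ± 0.51. On the releasing side the picture was mixed, with 14 of 35 presynaptic genes lower, 4 higher and 17 not called (median -0.72). The active zone gene rims3 fell (-5.64 ± 0.41), whereas its relative rims2 was not called at 0.75 ± 0.20 and lay above its pair in 6 of 6 pairs.

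Ion channel families split between the tissues. Of 40 potassium channel genes, 9 rose, 15 fell and 16 were not called (median -0.70). The modifier subunit kcng4 ran from 14.3 to 74.8 CPM in the ganglion (median 42.8), against 0.493 to 3.86 CPM in the cord (median 2.72) (log2 fold change 4.12 ± 0.38, adjusted p = 4.19e-05). The interacting protein kcnip2 and the calcium-activated channel subunit kcnmb4 were lower, at -5.72 ± 0.41 and -5.21 ± 0.41, and kcnd2, a partner of kcnip2, had 3 ganglion counts against 217 (scaled ratio 63.1, 95% exact counting interval 21.3 to 308). The background potassium channel kcnk1 was nearly level, at 73.3 ± 15.5 CPM in ganglion libraries and 70.5 ± 7.51 CPM in cord libraries.

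Of 9 genes for sodium, HCN and leak channels and their partners, 4 rose, 3 fell and 2 were not called (median 0.40). The sodium channel beta subunit scn4b, which is linked to resurgent current in mammalian neurons, ran from 199 to 327 CPM in the ganglion (median 224), against 61.6 to 82.4 CPM in the cord (median 72.6) (log2 fold change 1.70 ± 0.14, adjusted p = 2.07e-05). The beta subunits scn2b and scn3b were at 1.16 ± 0.14 and 1.13 ± 0.36 and the sodium channel partner fgf13 at 1.53 ± 0.16. The 3 members that fell belong to the sodium leak channel complex: nalcn at -1.01 ± 0.14, unc79 at -3.43 ± 0.29, and unc80. The value of nalcn lay at the 2-fold limit and its call was lost without replicate 1 or 2, at -0.97 and -0.93, without pairs 2 and 5, at -0.99, without pairing and relative to all genes on log2(TPM + 1), at -0.95. That of scn3b was lost without replicate 1, 3, 4 or 6, at 0.96 to 1.05, and on log2(TPM + 1). On that scale 2 of the 8 tested members rose, and 3 did relative to all genes.

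Calcium channel genes fell in 7 of 13 cases, rose in 1 and were not called in 5, and 2 fell relative to all genes on log2(TPM + 1). The single riser was the beta subunit cacnb3, which ran from 156 to 691 CPM in the ganglion (median 233), against 8.79 to 13.5 CPM in the cord (median 9.84) (log2 fold change 4.78 ± 0.29, adjusted p = 4.26e-06), and was at 4.30 without pairs 2 and 5. Pore subunits of the R type and T type, cacna1e and cacna1g, were at -3.93 ± 0.38 and -2.50 ± 0.34. Of 30 G protein, RGS and cyclase genes, 5 rose and 5 fell, against 13.8% and 17.3% of all genes (median -0.24). The regulator rgs11, which shortens G protein signals, ran from 79.4 to 130.2 CPM in the ganglion (median 104), against 0 to 0.601 CPM in the cord (median 0.395) (log2 fold change 8.32 ± 0.44, adjusted p = 2.6e-06). The G protein subunit gng13, known from mammalian taste, smell and retinal cells, ran from 357 to 1457 CPM in the ganglion (median 715), against 6.22 to 11.8 CPM in the cord (median 9.45) (log2 fold change 6.32 ± 0.32, adjusted p = 2.06e-06). Every ganglion library lay far above every cord library for both.

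**Figure D3:**
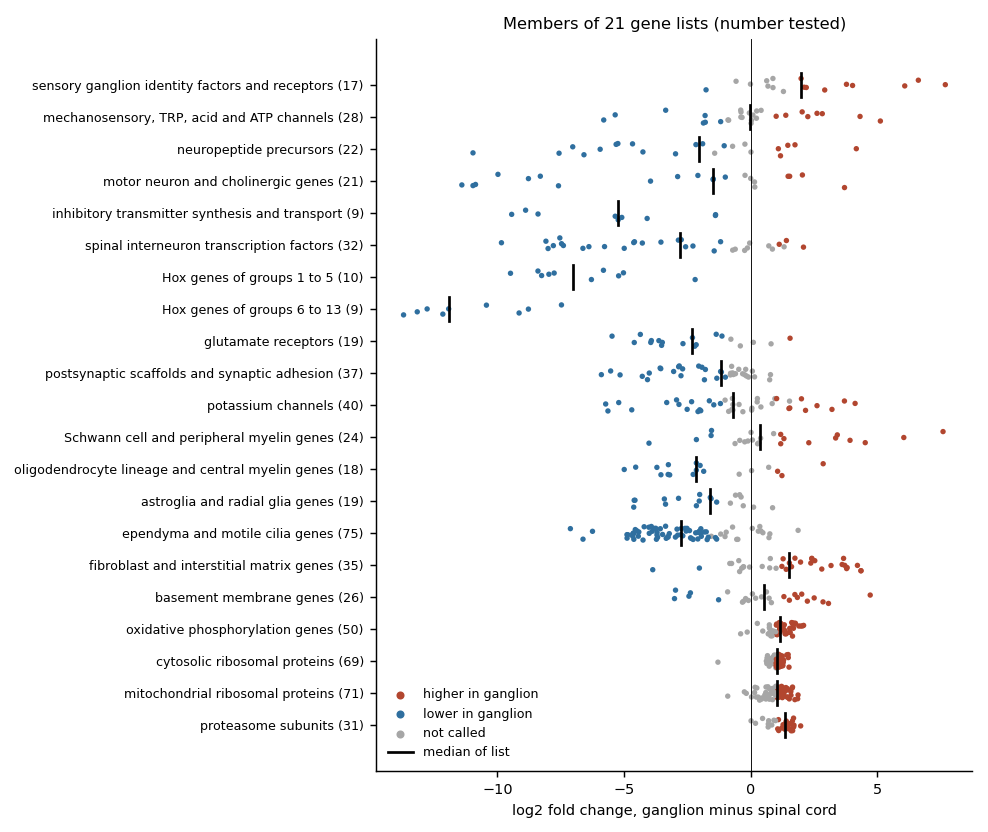
Log2 fold changes (ganglion minus spinal cord, horizontal axis) of the tested members of 21 gene lists, 1 point per gene, red where higher, blue where lower and grey where not called, with a black bar at the list's median and the number tested in brackets. The Hox and inhibitory lists lie wholly on the lower side and the sensory list mostly on the higher side; the oxidative phosphorylation, proteasome and ribosomal lists have medians near a 2-fold rise, where log2(TPM + 1) gave fewer calls.

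Myelin and glia differed by cell type. Of 24 Schwann cell and peripheral myelin genes, 10 rose, 4 fell and 10 were not called; their median was 0.36, which turned to -0.09 on log2(TPM + 1) and was 0.29 relative to all genes on that scale. Periaxin (prx), which stabilises peripheral myelin, ran from 832 to 3869.7 CPM in the ganglion (median 1457), against 0.601 to 40.3 CPM in the cord (median 13.2) (log2 fold change 7.59 ± 0.87, adjusted p = 0.000139). Its cord values were 40.3, 18.5, 10.1, 0.601, 16.2 and 1.03 CPM in replicates 1 to 6, so replicates 4 and 6 held almost none. The peripheral myelin protein pmp22 ran from 1530.3 to 6641 CPM in the ganglion (median 2126), against 18.7 to 96.3 CPM in the cord (median 33.7) (log2 fold change 6.04 ± 0.45, adjusted p = 1.35e-05), with the highest ganglion value in replicate 5 and the highest cord value in replicate 1. The myelination factor egr2 was at 4.52 ± 0.37, the adhesion receptor adgrg6 at 3.92 ± 0.20, the neuregulin receptor erbb3 at 3.42 ± 0.28 and the neural crest factor foxd3 at 3.35 ± 0.20.

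Myelin protein zero (mpz), which builds peripheral myelin and in bony fish also central myelin, was not called. It ran from 2188 to 10997 CPM in the ganglion (median 3784), against 2309.7 to 4236 CPM in the cord (median 3184), and the ganglion was above the cord in 4 of 6 pairs (log2 fold change 0.27 ± 0.27, adjusted p = 0.425). The sign turned on log2(TPM + 1), at -0.17, and without pairs 2 and 5, at -0.22. The members that fell were the crest factor tfap2a, the glial proteins s100b and fabp7, and ugt8, which makes a myelin glycolipid. The calcium-binding protein s100b ran from 557 to 1056 CPM in the ganglion (median 660.0), against 2735 to 3839 CPM in the cord (median 3060.1) (log2 fold change -2.14 ± 0.19, adjusted p = 3.72e-05), and fabp7, a fatty acid carrier of radial glia, was at -1.56 ± 0.17.

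Oligodendrocyte genes fell in 12 of 18 cases, rose in 3 (cspg4, enpp2 and sirt2, of which cspg4 and sirt2 were not called on log2(TPM + 1)) and were not called in 3 (median -2.15). The lineage factor olig2 ran from 8.10 to 22.8 CPM in the ganglion (median 16.3), against 137 to 258 CPM in the cord (median 192), and olig1 and nkx2-2 were at -4.54 ± 0.44 and -4.99 ± 0.39. The myelin regulator myrf was at -3.26 ± 0.26. Myelin-associated glycoprotein (mag), made by both myelinating cell types in mammals, ran from 204 to 428 CPM in the ganglion (median 262), against 1094 to 1501 CPM in the cord (median 1349) (log2 fold change -2.27 ± 0.19, adjusted p = 2.34e-05). The myelin enzyme cnp was not called and was nearly level, at 99.5 ± 16.7 CPM in ganglion libraries and 96.3 ± 7.48 CPM in cord libraries.

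Astroglia and radial glia genes fell in 12 of 19 cases, and 7 were not called (median -1.60). None rose in the edgeR fit over all 6 pairs, with DESeq2 or at an unadjusted p under 0.05, against 1 without replicate 5. The glutamate transporter slc1a3, which clears transmitter at central synapses, ran from 15.3 to 92.9 CPM in the ganglion (median 52.0), against 899 to 1256 CPM in the cord (median 1104) (log2 fold change -4.60 ± 0.33, adjusted p = 1.01e-05). Its lowest ganglion values were 15.3 CPM in replicate 2 and 34.4 CPM in replicate 5. The neural progenitor factors pax6 and sox1 were at -4.62 ± 0.42 and -4.57 ± 0.44. Glycolytic aldoc, also an astroglial gene, was not called, at -0.38 ± 0.16.

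Genes of ependyma and motile cilia fell in 60 of 75 cases and 15 were not called (median -2.75). None rose in the paired edgeR fit, nor at an unadjusted p under 0.05, whereas 1 was higher with DESeq2, without pairing, without replicate 5 and relative to all genes on log2(TPM + 1). The master factor of motile cilia, foxj1, ran from 0 to 2.12 CPM in the ganglion (median 0.470), against 26.6 to 82.4 CPM in the cord (median 43.9) (log2 fold change -6.24 ± 0.67, adjusted p = 9.38e-05). The ciliary factor rfx4 ran from 0.150 to 3.41 CPM in the ganglion (median 1.66), against 197 to 253 CPM in the cord (median 249) (log2 fold change -7.12 ± 0.44, adjusted p = 5.2e-06), and the axonemal gene cfap221 was at -6.62 ± 0.55. The list spans dynein arms, radial spokes, tektins and assembly factors. The most abundant uncalled member was spag1, an assembly factor, at 0.30 ± 0.21.

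Connective tissue genes were mostly higher in the ganglion. Of 35 fibroblast and interstitial matrix genes, 21 rose, 2 fell and 12 were not called (median 1.53). The collagen VI chains col6a1 and col6a2 were at 4.35 ± 0.51 and 4.21 ± 0.49, and the mesenchymal factor twist1 at 4.35 ± 0.54. In the ganglion col6a1 ran from 73.4 to 505 CPM, highest in replicate 5, against 1.91 to 22.3 CPM in the cord, where replicates 4 and 6 held 2.78 and 1.91 CPM and the other 4 held 12.3 to 22.3 CPM. Fibronectin (fn1) and thbs3 fell, at -2.03 ± 0.27 and -3.87 ± 0.38.

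Summed levels of the 2 fibroblast markers found in the table, col1a2 and postn, ran from 203 to 837 CPM in the ganglion and from 9.61 to 73.7 CPM in the cord, again lowest in cord replicates 4 and 6. The cord libraries low in these markers were also those lowest in prx and pmp22, and the part of such tissue in those values was not tested. Of 26 basement membrane genes, 10 rose, 5 fell and 11 were not called (median 0.52). Nidogen (nid1) and perlecan (hspg2) were at 4.71 ± 0.79 and 3.07 ± 0.24, and the laminin chain lama1 fell, at -3.01 ± 0.45.

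Of 24 endothelial and mural genes, 6 rose, 9 fell and 9 were not called (median -0.48). The clotting factor vwf was at 2.85 ± 0.47, while cldn5, a tight junction protein of the blood-brain barrier in mammals, fell at -2.31 ± 0.18. Of 29 leukocyte genes 2 fell and none rose in the paired edgeR fit, while 1 was higher at an unadjusted p under 0.05, 1 with DESeq2, 2 without pairs 2 and 5 and 1 to 3 without replicate 1, 2, 3, 4 or 6. The members that fell were csf3r at -1.19 ± 0.26 and slc7a7 at -1.14 ± 0.21. The call of csf3r was lost relative to all genes on log2(TPM + 1), at -0.74. It was also lost in the unpaired fit without the libraries high in acta1, at -1.06. The antigen presentation gene cd74 was not called, although ganglion replicate 5 held 11877 CPM against 2561 to 5127 CPM in the cord. Of 4 erythrocyte genes 2 rose, rhag and blvrb, and blvrb lost its call on log2(TPM + 1), at 0.96. The Rh-type membrane protein gene of red cells, rhag, ran from 31.7 to 445 CPM in the ganglion (median 170.3), against 31.2 to 57.4 CPM in the cord (median 39.5) (log2 fold change 1.92 ± 0.46, adjusted p = 0.00781), with ganglion replicate 5 the lowest.

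Of 24 skeletal muscle genes, 1 rose, 4 fell and 19 were not called, against 13.8% higher and 17.3% lower of all genes. Their median was -0.67 and turned to 0.16 without pairing. Muscle actin (acta1) was not called (-2.20 ± 1.35). Summed with desmin (des), it stood at 3142 CPM in ganglion replicate 1 and 5.02 to 132 CPM in the other 5, against 1060 to 1226 CPM in cord replicates 1, 3 and 5 and 103 to 285 CPM in the other 3. Of 14 cartilage and bone genes, 5 rose and 4 fell (median -0.64): matn4 ran from 16.2 to 78.7 CPM in the ganglion (median 36.0), against 0 to 1.1 CPM in the cord (median 0.164), and snorc, a cartilage proteoglycan gene, was at -6.67 ± 0.52. The cartilage list member ucma rose as well, at 4.64 ± 0.22. Pigment cell, epithelial and adipocyte lists had 7, 5 and 5 tested members, of which 2, 0 and 0 rose and 1, 2 and 0 fell in the paired edgeR fit. DESeq2 called 1 epithelial gene higher, as did the fits without replicate 5 and without pairs 2 and 5, and limma on log2(TPM + 1) called 1 adipocyte gene lower, as did 3 fits that left out libraries; at an unadjusted p under 0.05 these 3 counts were also 0.

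**Figure D4:**
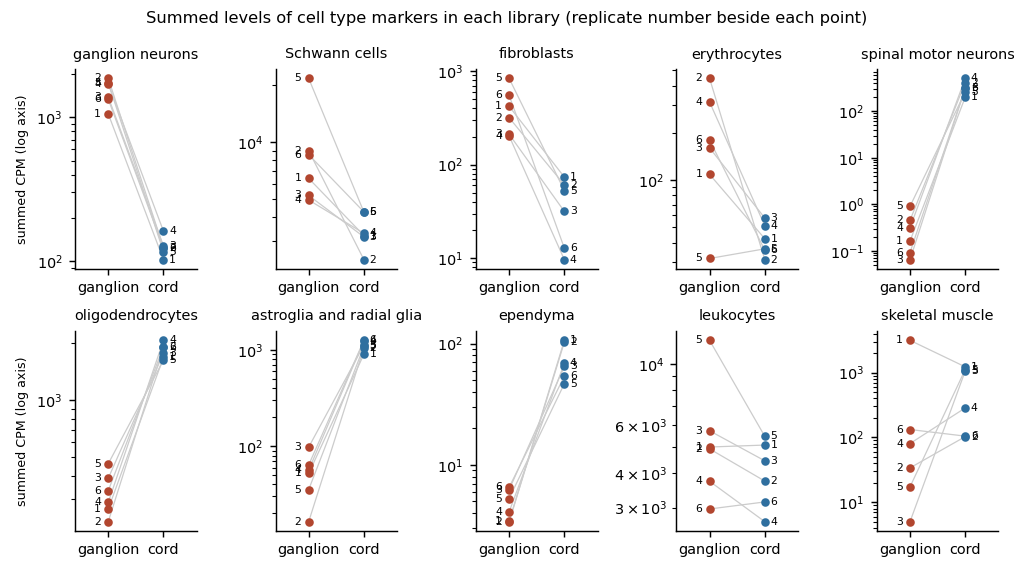
Summed CPM (log axis) of the cell type markers found in the table, in each ganglion library (red, left) and spinal cord library (blue, right), with the replicate number beside each point and lines joining the same number. Ganglion neuron and fibroblast sums are higher in every ganglion library, and motor neuron, oligodendrocyte, astroglial and ependymal sums lower; ganglion replicate 5 has the highest Schwann cell and leukocyte sums, cord replicates 4 and 6 the lowest fibroblast sums, and ganglion replicate 1 the highest muscle sum.

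Genes of oxidative phosphorylation, the proteasome and ribosomes were mostly higher in the ganglion, with medians close to 2-fold. Of 50 oxidative phosphorylation genes, 35 rose, none fell and 15 were not called (median 1.15); 16 rose on log2(TPM + 1), 31 relative to all genes on that scale and 26 without pairs 2 and 5. Of 31 proteasome subunit genes, 22 rose and none fell (median 1.35), with 11 and 21 on those scales and 20 without pairs 2 and 5. Of 69 cytosolic ribosomal protein genes, 42 rose and none fell (median 1.03), with 39 higher without pairs 2 and 5. On log2(TPM + 1) 3 rose and 1, rpl3l, fell, and 28 rose relative to all genes. DESeq2 called 1 cytosolic ribosomal gene lower and none of the other 3 lists, and at an unadjusted p under 0.05 the counts were likewise 1 and 0. Of 71 mitochondrial ribosomal protein genes, 38 rose and none fell (median 1.04), with 10 on log2(TPM + 1), 32 relative to all genes and 19 without pairs 2 and 5.

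Single members show how the rise was spread. The ribosomal protein gene rpl7a ran from 2089 to 4386 CPM in the ganglion (median 3175), against 1236 to 1666 CPM in the cord (median 1329) (log2 fold change 1.16 ± 0.16, adjusted p = 0.000463), and fell short of 2-fold without pairs 2 and 5, at 0.95. Ribosomal protein genes together took 3.22 ± 0.74% of the counts in the ganglion and 1.79 ± 0.25% in the cord (SD, n = 6 each), higher in 6 of 6 pairs; the exact two-sided sign-flip permutation test gave p = 0.03125, the smallest it can give with 6 pairs, and 0.0781 adjusted over 5 library measures. The complex I subunit ndufb3 ran from 70.6 to 789.9 CPM in the ganglion (median 105), against 32.1 to 41.4 CPM in the cord (median 35.6) (log2 fold change 2.09 ± 0.46, adjusted p = 0.00545). Its 2 highest ganglion values were 789.9 CPM in replicate 5 and 331 CPM in replicate 2, and the other 4 lay between 70.6 and 116 CPM; without pairs 2 and 5 it was at 1.29. The proteasome subunits psma3 and psmc2 were at 1.97 ± 0.31 and 1.69 ± 0.40, and without pairs 2 and 5 at 1.38 and 1.01. The mitochondrial ribosomal genes mrps17 and mrps26 were at 1.87 ± 0.23 and 1.85 ± 0.41, and without these pairs at 1.46 and 1.12.

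Ganglion replicates 2 and 5 differed from the other 4 ganglion libraries in many genes at once. Of all genes tested, 551 (2.75%) were at least 2-fold above the highest of the other 4 in both, and 1324 (6.62%) were at least 2-fold below the lowest, counting genes with at least 1 CPM in every library of the higher side. The first group held 5 of 50 oxidative phosphorylation genes, 8 of 71 mitochondrial ribosomal genes, 4 of 31 proteasome genes and none of 69 cytosolic ribosomal genes. The AMPA receptor subunit gria2 stood at 2602 CPM in replicate 5 and 759 CPM in replicate 2, against 99.5 to 145 CPM in the other 4 ganglion libraries and 114 to 164 CPM in the cord. The growth factor receptor fgfr2 stood at 1497 and 233 CPM in these libraries, against 64.3 to 119 CPM in the other 4 and 269 to 416 CPM in the cord. In the paired edgeR fit over the 6 pairs gria2 was at 0.80 and fgfr2 at -1.22, and neither was called. The call of fgfr2 depended on the tool and the libraries: it was called lower by DESeq2, at -1.25, by limma on log2(TPM + 1), at -1.47, without replicate 5, at -1.74, and without pairs 2 and 5, at -2.05. The value of gria2 was -0.25 without these pairs and 2.17, called higher, without pairing.

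Similar gaps occurred in slit2, an axon repellent, and in the zinc finger factor zfhx4, which fell without pairs 2 and 5, at -1.19. On the other side, rnf220 stood at 0.301 CPM in replicate 5 and 6.78 CPM in replicate 2, against 31.9 to 38.3 CPM in the other 4 ganglion libraries and 59.2 to 88.1 CPM in the cord (log2 fold change -2.10 ± 0.62, adjusted p = 0.02). Its call was lost without replicate 2, at -1.87, and in the unpaired fit without the libraries high in acta1, at -1.80. Replicate 5 exceeded replicate 2 for 486 of the 551 genes that were higher. What sets these 2 libraries apart was not tested.

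**Figure D5:**
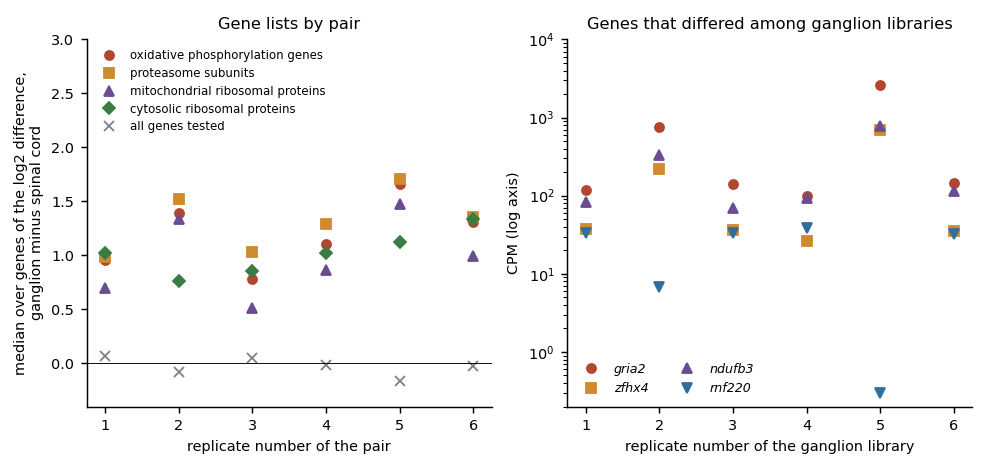
Left, the median log2 difference between ganglion and spinal cord over the members of 4 gene lists and over all genes tested, for each pair of libraries (horizontal axis, replicate number); right, the CPM of 4 genes in each ganglion library on a log axis. The oxidative phosphorylation, proteasome and mitochondrial ribosomal medians are highest in pairs 2 and 5 and above 0.5 in all pairs, and the genes on the right part ganglion replicates 2 and 5 from the other 4.

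Some called genes varied widely among the cord libraries. The gene igfals ran from 81.3 to 207 CPM in the ganglion (median 164), against 0.159 to 22.4 CPM in the cord (median 12.1), with cord replicates 4 and 6 at 0.526 and 0.159 CPM (log2 fold change 4.53 ± 0.92, adjusted p = 0.00344). The retinol carrier rbp4 ran from 167 to 383 CPM in the ganglion (median 264), against 2.78 to 254 CPM in the cord (median 46.1), with the lowest cord values in the same replicates, 2.78 and 4.29 CPM (log2 fold change 2.92 ± 0.94, adjusted p = 0.0297). That call was lost when replicate 4, 5 or 6 was left out, at 2.28, 2.62 and 2.23. It was also lost without pairing, at 1.63, and in the unpaired fit without the libraries high in acta1, at 1.47. Together with rnf220 these had the widest spread among pairs of the called genes that carry a symbol and average 5 or more on the log2 CPM scale.

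Lipid and growth genes added fewer calls. Of 25 cholesterol synthesis genes, 4 fell and none rose in the paired edgeR fit (median -0.24), against 17.3% and 13.8% of all genes. Of 35 myelin lipid and sphingolipid genes, 9 fell and none rose (median -0.16). With DESeq2 none rose in either list, at an unadjusted p under 0.05 0 and 1 rose, and up to 2 and 3 rose in other fits. The acyl-CoA synthetase acsbg1 ran from 2.26 to 13.1 CPM in the ganglion (median 7.43), against 60.2 to 78.8 CPM in the cord (median 71.7) (log2 fold change -3.54 ± 0.32, adjusted p = 3.84e-05), and fa2h, which hydroxylates myelin fatty acids, was at -2.49 ± 0.41. Of 71 DNA replication and mitosis genes, 6 rose and 6 fell, against 13.8% and 17.3% of all genes. Of 31 genes of glycolysis and the citrate cycle, 5 rose and 4 fell, shares near the 13.8% and 17.3% of all genes. The gene pdhb was at 1.73 ± 0.21 and pyruvate carboxylase (pc), an astroglial enzyme in mammals, at -2.20 ± 0.25.

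Injury response and immediate early genes rose in 10 of 32 cases, fell in 3 and were not called in 19 (median 0.69). The nerve injury factor atf3 ran from 30.9 to 105 CPM in the ganglion (median 58.6), against 5.78 to 20.6 CPM in the cord (median 11.1) (log2 fold change 2.45 ± 0.14, adjusted p = 3.16e-06). The stress factor cebpd was at 2.21 ± 0.17, and nr4a3, an activity-induced gene, fell at -2.91 ± 0.40. The growth-associated protein gap43 was above the cord in 6 of 6 pairs at 0.83 ± 0.15, below the 2-fold limit. Of 37 complement, interferon and cytokine genes, 9 rose and 4 fell, with the complement component c6 at 3.58 ± 0.44 and the chemokine cxcl14 at -2.96 ± 0.18.

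Axon guidance genes fell in 19 of 43 cases, rose in 9 and were not called in 15, with 10 lower relative to all genes on log2(TPM + 1) (median -0.74). The semaphorin sema3g and the ephrin receptor epha4 were at -5.17 ± 0.50 and -3.45 ± 0.65. Signalling genes of the Wnt, hedgehog, BMP, FGF and Notch pathways gave 13 higher and 16 lower of 68 (median -0.23), against 13.8% and 17.3% of all genes. Relative to all genes on log2(TPM + 1), 10 were lower. The Wnt antagonist sfrp4 ran from 24.5 to 98.2 CPM in the ganglion (median 35.3), against 1.11 to 8.11 CPM in the cord (median 2.50) (log2 fold change 4.03 ± 0.22, adjusted p = 2.67e-06), and the Notch ligand dll1 was at -4.23 ± 0.22. Of 40 genes of the axonal cytoskeleton and transport, 4 rose, 9 fell and 27 were not called, against 13.8% higher and 17.3% lower of all genes. The heavy neurofilament nefh was at 1.39 ± 0.16, and the kinesin kif1c fell at -1.82 ± 0.29. Of 14 node and paranode genes, 2 rose and 3 fell (median -0.37), against 13.8% and 17.3% of all genes. The paranodal cntnap1 was at 2.22 ± 0.26 and the perineuronal proteoglycan bcan at -4.20 ± 0.30.

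Ion pumps gave 3 higher and 4 lower genes of 23, shares near the 13.8% and 17.3% of all genes: the plasma membrane calcium pump atp2b2 was at -2.93 ± 0.30, the sodium pump family member atp1b4 at -3.75 ± 0.18, and the proton pump subunit atp6v1f at 1.36 ± 0.15. Of 45 endoplasmic reticulum chaperone and secretion genes, 4 rose and none fell in the paired edgeR fit, with 2 lower at an unadjusted p under 0.05 and 2 with DESeq2, sec61g of the protein translocation channel at 1.25 ± 0.15.

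The most abundant called genes with a symbol were ordinary cell genes and glial ones. Brain creatine kinase (ckb), which buffers ATP, ran from 3279 to 8613 CPM in the ganglion (median 4513), against 336 to 589 CPM in the cord (median 466) (log2 fold change 3.37 ± 0.23, adjusted p = 8.92e-06). The chaperone clusterin (clu), the actin-binding thymosin tmsb4x and the growth-related tpt1 rose less, at 1.19 ± 0.13, 1.36 ± 0.17 and 1.14 ± 0.17, and tpt1 fell short of 2-fold without pairs 2 and 5, at 0.88. On log2(TPM + 1) none of these reached 2-fold, clu at 0.74, tmsb4x at 0.91 and tpt1 at 0.69, nor did rpl7a at 0.71, atp6v1f at 0.91 or sec61g at 0.80. On the lower side, the microtubule protein stmn1 was at -1.42 ± 0.21 and the proteolipid family member gpm6b at -2.85 ± 0.20. The RNA-binding factor ybx1 fell although one ganglion library lay above the cord, with 1484 CPM in ganglion replicate 1 against 267 to 557 CPM in the other 5 and 1068 to 1458 CPM in the cord (log2 fold change -1.44 ± 0.30, adjusted p = 0.00386). The tetraspanin tspan8 had the most positive value of the abundant genes with a symbol and without overlap. It ran from 344 to 798 CPM in the ganglion (median 695), against 0.177 to 2.75 CPM in the cord (median 1.15) (log2 fold change 8.92 ± 0.44, adjusted p = 1.78e-06). The gene plekhd1 was at 6.69 ± 0.33.

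Genes with only a locus identifier gave the most positive values of all genes tested. The locus LOC111847618 ran from 349 to 1721 CPM in the ganglion (median 516), against 0 to 0.867 CPM in the cord (median 0.159) (log2 fold change 11.53 ± 0.80, adjusted p = 9.15e-06), and LOC111836850 was at 10.76 ± 0.31. On the lower side, LOC111848621 and LOC111855806 had no count in the ganglion, at least 2081-fold and 1999.5-fold lower. These identifiers carry no gene name in the files, so they joined none of the lists.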

How the data were processed

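Total RNA from each tissue was made into libraries by a kit for small inputs, which keeps no strand, per the labels' protocols. The submitters' processing notes name STAR 2.7.7a and featureCounts, with Subread 2.0.1, besides Trimmomatic 0.39 and CASAVA 1.8.2. The genome build and annotation behind the table are not stated there, so overlapping genes and near-identical copies cannot be told apart. The authors deposited raw counts per gene and TPM for every library, unpooled, in 1 table. No genome was used, and no sequences are shown.

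Counts of the 12 libraries were filtered (filterByExpr), scaled by TMM and fitted with edgeR 4.0.16 in R 4.3.3 by quasi-likelihood with replicate number and tissue as terms, leaving 5 residual degrees of freedom, with Benjamini-Hochberg adjustment of all 20002 p-values. Standard errors are the absolute log2 fold change divided by the square root of F. The same replicate number shared deviations in both tissues (correlations 0.122 to 0.409); differently numbered libraries reached 0.0499 to 0.162, and for replicate 3 one exceeded the same number's 0.122; this pairing comes from the data, since the labels do not say that a number marks a fish. P-values set the tissue difference against its spread among these pairs of libraries. The deposited TPM values were tested with limma 3.58.1 on log2(TPM + 1). Genes with no count in a tissue were compared with a floor of 3 counts summed across that tissue, and intervals at 95% cover counting error only. On simulated counts for this comparison (19828 genes), the fit called 69.7% of genes changed by -1.5 and 70.6% by 1.5 on the log2 scale, 84.8% by -2 and 97.0% by 2, and 12 of 19629 unchanged genes. The simulation changed few genes, about as many up as down, and had no libraries set apart as ganglion replicates 2 and 5 were. Far more genes differed in the real data, more of them lower, so these rates need not hold there.

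Members of 48 gene lists were matched by exact symbol, and 1323 were tested. Members and lists were chosen with earlier results of these data known. Genes were named by rank of fold change, abundance, spread among pairs and place in each list, plus piezo2 and mpz; further list members were named after their values were seen, and some members are not reported here. Alternatives changed the scaling, filter, block, pseudocount, tool (DESeq2 1.42.0) and libraries.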

Additional observations from a re-analysis of the deposited data

Results flagged for a closer look

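Some libraries stood far from the other 5 of their tissue, by a gap to the nearest value larger than Dixon's limit for 6 samples. Of 97 groups of values examined, 14 were so marked. The groups did not cover every gene named in the sections above. The ganglion values of gria2 and fgfr2, for example, were not among them. Chance marks about 1 in 20 where groups are independent and values normally distributed. These groups overlap, since the Schwann cell sum contains prx, pmp22 and mpz, so their count cannot be set against that rate. Ganglion replicate 5 accounted for 7 of the 14 marked groups: 3869.7 CPM of prx, 6641 CPM of pmp22, 10997 CPM of mpz, a Schwann cell marker sum of 21663 CPM, a leukocyte marker sum of 12170 CPM, 32.2% of counts in the 50 most abundant genes and 56.9% of counts in genes with a locus identifier.

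Ganglion replicate 2 had 1566 CPM of fabp7. Ganglion replicate 1 had 1484 CPM of ybx1, a skeletal muscle marker sum of 3142 CPM and an adipocyte marker sum of 1.95 CPM. Spinal cord replicate 1 had 96.3 CPM of pmp22 and a pigment cell marker sum of 9.93 CPM. Spinal cord replicate 3 was the lowest for LOC111848621, at 70.2 CPM. The cause of these gaps was not tested.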

How the results depend on the processing

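No gene was called in the opposite direction under any of the alternatives run. Counts of higher and lower genes were 1613 and 1970 with at least 10 CPM in 6 libraries, 866 and 1719 at a log2 fold change of at least 2, and 4750 higher with no limit on the fold, by construction of those limits. On log2(TPM + 0.1) and log2(TPM + 1), 1406 and 1202 genes were higher. Leaving out 1 replicate gave 2553 to 2796 higher and 3114 to 3519 lower genes, and leaving out pairs 2 and 5 gave 2382 and 3341. Without the replicate block, so with no pairing, 2948 were higher and 3174 lower. Of these calls, 2628 higher and 3136 lower were shared with the paired fit. Among the 198 genes named by rule, the calls of rbp4 and gria2 changed, and zfhx4 and fgfr2 turned to 1.21 and 0.014.

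Without the 10 most abundant genes of each library, the difference in total counts turned to 238866 and that in the share of the 50 most abundant genes to 0.964 percentage points.

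Among the genes named by rule, the other log2 fold changes that turned sign belonged to genes not called. On log2(TPM + 0.1) these were mpz -0.17, scg2 -0.44, slit2 -0.20, gabbr1 -0.40, kcnk1 -0.41, hcn2 -0.046, spag1 -0.15, dag1 -0.38, cd74 -0.057, il6st -0.22 and elovl5 -0.31. On log2(TPM + 1) they were mpz -0.17, scg2 -0.43, slit2 -0.18, gabbr1 -0.34, kcnk1 -0.40, hcn2 -0.031, spag1 -0.14, dag1 -0.37, cd74 -0.057, il6st -0.22 and elovl5 -0.31, and relative to all genes, an alternative chosen after seeing the data, scg2 -0.054, zfhx4 0.039 and kcnk1 -0.020. Without pairs 2 and 5 they were mpz -0.22, scg2 -0.072, slit2 -0.68, gria2 -0.25, kcnk1 -0.032, dag1 -0.18 and elovl5 -0.049. With at least 10 CPM they were scg2 -0.037 and kcnk1 -0.0093, and with DESeq2 size factors and DESeq2 scg2 -0.0018 and -0.0022. Without the libraries high in acta1 and with no replicate block they were scg2 -0.061, zfhx4 1.46, tal1 0.067 and fgfr2 0.091. Leaving out 1 replicate gave -0.046 to 0.057 for scg2, -0.29 to 0.43 for slit2, -0.66 to 0.22 for zfhx4, -0.0072 to 0.30 for gabbr1, -0.021 to 0.089 for kcnk1, -0.11 to 0.22 for dag1 and -0.42 to 0.0088 for tal1. The cause was not tested. Genes with a few counts in one tissue are limited by depth, and their fold changes are bounds or wide intervals.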
